A study of Mus musculus with 8 samples.

Results

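The 8 genes described here are *Hmga2* and 7 further genes known from fetal-type blood progenitors, *Hmga1*, *Lin28a*, *Lin28b*, *Igf2bp1*, *Igf2bp2*, *Igf2bp3* and *Arid3a*. They were chosen by symbol from the 23284 gene symbols of the tables, with the rise of *Hmga2* in *Pcgf1*-KO IdHPCs known. All 8 symbols were present in the tables of both cell types. Poly(A) RNA was sequenced from 8 libraries in 4 groups of 2, control and *Pcgf1*-KO of each cell type, and PCGF1 is a subunit of a variant form of the Polycomb repressive complex PRC1. The labels give strain B6CBAF1/J and bone marrow as the source for all of them, with passages 15 to 18. IdHPCs are hematopoietic progenitors from LSK bone marrow cells, held in culture by a transduced *Id3* on TSt-4 stromal feeder cells with IL-7, SCF and Flt3-L. Control IdHPCs were *Pcgf1* fl/fl and KO IdHPCs *Pcgf1* -/-, the latter through ERT2-Cre and treatment with 4-OHT. In another IdHPC experiment of the study the controls received ethanol in place of 4-OHT, and the methods do not give the treatment of the control libraries used here separately. LMPPs are lymphoid-primed multipotent progenitors, sorted and then also cultured on TSt-4 stromal cells with SCF, IL-7 and Flt3-L. Their controls came from *Pcgf1* fl/fl mice without Cre and their KO cells from ERT2-Cre *Pcgf1* fl/fl mice, and both were given 4-OHT, which in cells with ERT2-Cre deletes exons 2 to 7 of *Pcgf1*. Cre and genotype therefore differ together in LMPPs. The study describes the 2 libraries of a group as biologically independent experiments, and the labels do not name the culture or animal behind each.

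In fetal progenitors, the RNA-binding proteins LIN28A and LIN28B block the maturation of let-7 microRNAs. Messages that let-7 represses are then made freely, among them those of the chromatin protein HMGA2, of the IGF2BP proteins, which bind and stabilize mRNAs, and of the DNA-binding factor ARID3A. HMGA2 and its relative HMGA1 bind AT-rich DNA and alter chromatin structure. LIN28B, HMGA2 and IGF2BP3 are known as a fetal set in blood stem and progenitor cells that is turned down after birth. The comparison below asks whether the *Lin28b* and *Igf2bp* genes rose where *Hmga2* rose.

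The sequences below show the let-7 seed and the letters that could pair with it, which cannot by themselves show a let-7 link. Mature let-7 microRNAs of the mouse share their seed, bases 2 to 8, which is printed in capitals in these sequences from RefSeq (GRCm38.p6).
let-7a-5p: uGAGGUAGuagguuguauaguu
let-7d-5p: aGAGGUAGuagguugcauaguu
let-7g-5p: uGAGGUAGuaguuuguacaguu
miR-98-5p: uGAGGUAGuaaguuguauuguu
The letters that pair with this seed are CTACCTC, and they were searched on the transcript strand of the longest annotated 3′ UTR of each gene in the NCBIM37 (mm9) annotation. Of 19915 protein-coding genes, 1754 (8.81%) held the match, and 601 (3.02%) held it followed by A, a longer motif that contains the first. Each of the 8 members held at least 1 match, 19 in all. Several of these genes are known let-7 targets and were chosen for it, so that this count is a description of the set. Their 3′ UTRs were also longer, 1183 to 6337 bases, than the median gene's 893 bases. Among genes whose 3′ UTR was within 10% of the member's length, the share with a match ran from 9.99% for *Hmga1* to 32.1% for *Igf2bp1*.

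*Hmga2* (chromosome 10, minus strand) held 4 matches and *Igf2bp1* (chromosome 11, minus strand) also held 4. *Lin28b* held 4, *Lin28a* and *Arid3a* held 2 each, and *Hmga1*, *Igf2bp2* and *Igf2bp3* held 1 each. The 4 sites of *Hmga2*, and for comparison the first site of *Lin28b*, *Igf2bp1*, *Igf2bp3* and *Arid3a*, are printed with the seed match in capitals and 10 bases on either side, on the strand of the transcript.
*Hmga2* site 1, chr10:119801271-119801297: cattcaatttCTACCTCagcatcagtt
*Hmga2* site 2, chr10:119800034-119800060: ctcctcaataCTACCTCtgaatgctac
*Hmga2* site 3, chr10:119799596-119799622: ttgcaaggaaCTACCTCcacacttcca
*Hmga2* site 4, chr10:119798738-119798764: aaacacactaCTACCTCttaagtccca
*Lin28b* site 1, chr10:45100819-45100845: ggcgggaagtCTACCTCatgcaagcac
*Igf2bp1* site 1, chr11:95823083-95823109: gcgaagtaaaCTACCTCaaggtgtgaa
*Igf2bp3* site 1, chr6:49036777-49036803: ttttactcaaCTACCTCaggtattcag
*Arid3a* site 1, chr10:79416645-79416671: aagtttctttCTACCTCaggtcttttg
The match was followed by A at site 1 of each of these 5 genes and at none of the other 3 sites of *Hmga2*. Among the sites not printed, A followed at sites 1 and 2 of *Lin28a*, sites 2 and 3 of *Igf2bp1* and the site of *Igf2bp2*. It did not follow at the site of *Hmga1*, sites 2 to 4 of *Lin28b*, site 4 of *Igf2bp1* and site 2 of *Arid3a*. A match is a stretch of letters and not a measured site of binding.

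The libraries held 15722759 to 25302206 reads on distinct exons in IdHPCs and 9618849 to 12578784 in LMPPs. Levels are in CPM (counts scaled to the library total), in which 1 read was worth 0.0287 to 0.0757 CPM. On the deleted exons 2 to 7, *Pcgf1* had 193 and 173 reads in the control IdHPCs and 15 in each KO library. In LMPPs the libraries labelled control 1 and KO 1 held 84 and 76 reads there, while those labelled control 2 and KO 2 held 0. These reads go against the label of the LMPP libraries labelled control 2 and KO 1. LMPP tests below follow the labels, and LMPP values are given by library or as a range over all LMPP libraries.

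*Hmga2* stood at 8.85 and 6.65 CPM in the control IdHPCs and at 35.2 and 27.7 CPM in the KO IdHPCs. Both KO libraries lay above both controls, with means of 7.75 ± 1.56 and 31.4 ± 5.34 CPM (SD, n = 2 each), a ratio of 4.06. This contrast chose the gene and is given as a description. Of 12273 genes tested in IdHPCs with limma, 33 (0.269%) were higher and 32 (0.261%) lower in KO at a Benjamini-Hochberg adjusted p under 0.05, and *Hmga2* was the 1 member among them. The exactTest of edgeR called 466 higher and 163 lower and DESeq2 341 and 153, with *Hmga2* again the 1 member. Its limma difference was 1.89 ± 0.27 (SE) on the log2(CPM + 1) scale. Without control 2 it was 1.71 with an adjusted p of 0.148, and 0 genes were called higher and 14 lower. Without KO 1, 237 were called higher and 581 lower, and without KO 2, 120 and 46. In the study's own grouping of genes bound by PCGF1 and RING1B, *Hmga2* and *Igf2bp2* stand among those with H3K27me3 (C1), *Hmga1* and *Igf2bp3* among those without it (C2), and the other 4 members in neither.

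**Figure D1:**
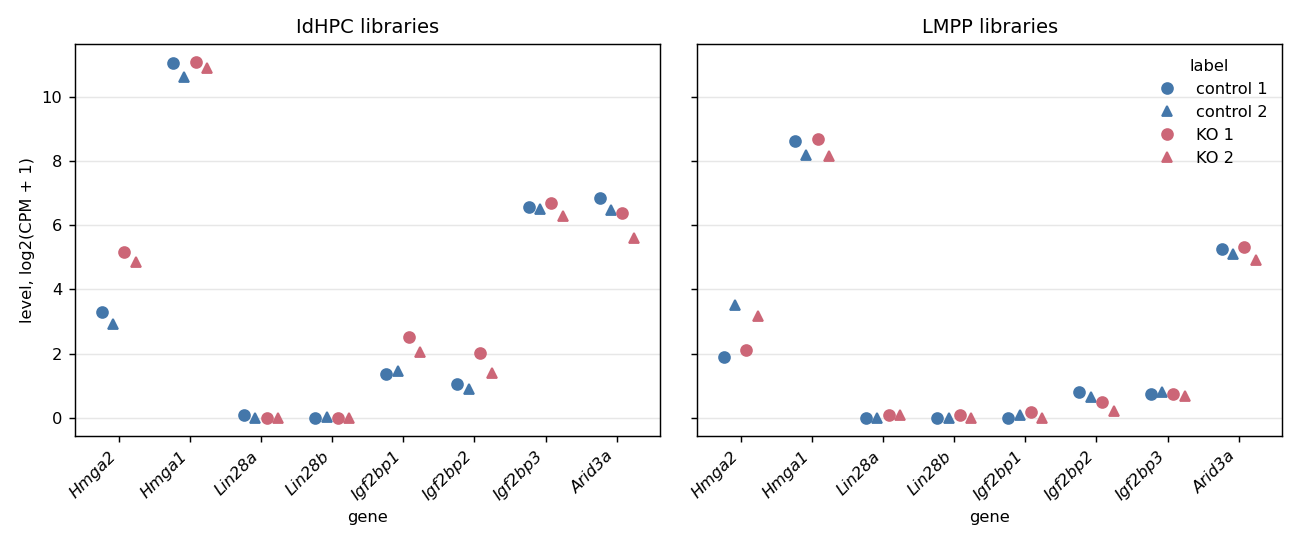
Levels of the 8 members as log2(CPM + 1), 1 point for each library, IdHPC on the left and LMPP on the right, with blue for control, red for KO, circles for replicate 1 and triangles for replicate 2. In IdHPCs the KO points of *Hmga2* stand above the controls, and *Lin28a* and *Lin28b* lie at or near 0 in all 8 libraries.

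The exons of *Hmga2* were then read singly. The table lists 5 of them, and the mean of the KO libraries was above that of the controls in each, by 3.38, 2.97, 2.77, 6.80 and 4.43 times from the 5′ to the 3′ end. For exon 4 the controls held 9 and 0 reads against 40 and 10 in KO, and its ratio was 3.402 without control 2, 3.42 without KO 1 and 10.2 without KO 2. Both KO libraries were above both controls in 4 of the 5 exons. In exon 3, KO 2 stood at 0.659 CPM, below control 1 at 0.704 CPM. Over exons 1 to 3 the ratios without KO 1 were 2.27, 2.002 and 1.37, and 4.34 in exon 5. Exon 5, at the 3′ end, carried 64.7%, 67.7% and 65.8% of the *Hmga2* reads in control 1, control 2 and KO 1, and 80.1% in KO 2. The library KO 2 also had more of its reads on the 3′ exon over 8105 genes, 29.6% against 24.4% to 26.1% in the other IdHPC libraries. The part of this in the values of *Hmga2* was not tested. Without the 3′ exon of each gene the difference was 1.35, with an adjusted p of 0.533 (limma), and 3 genes in all were called.

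**Figure D2:**
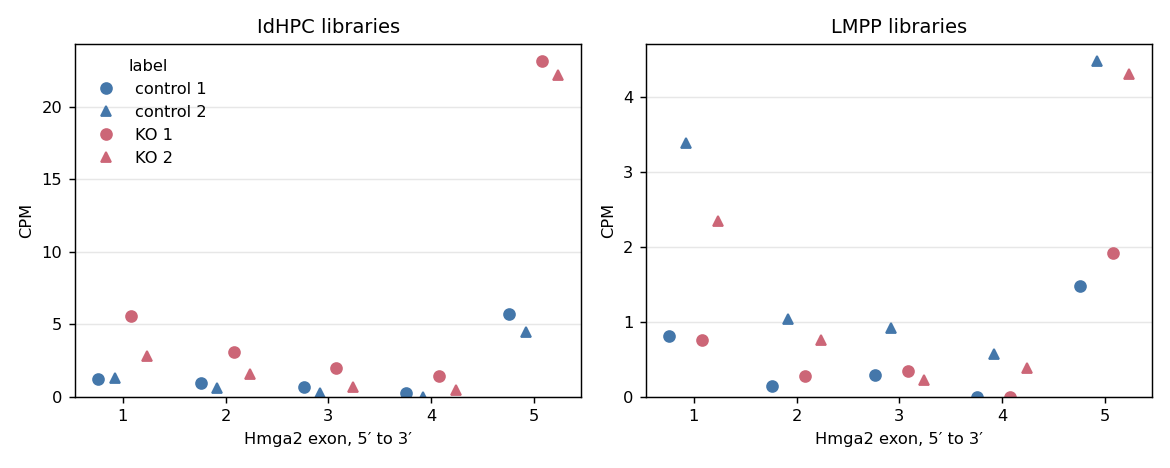
CPM of each *Hmga2* exon from the 5′ to the 3′ end, 1 point for each library, IdHPC on the left and LMPP on the right on a smaller scale, coloured by label. Exon 5 is the highest in every library, and in LMPPs the libraries labelled control 2 and KO 2 (triangles) lie above the other 2 in exon 5.

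In LMPPs the values of *Hmga2* did not order by label. It stood at 2.73 and 10.4 CPM under the labels control 1 and control 2, against 3.29 and 8.02 CPM under KO 1 and KO 2. The labelled groups overlapped, and the limma difference by label was -0.07 ± 0.60 with an adjusted p of 1.0. The 2 libraries without reads on exons 2 to 7 of *Pcgf1*, labelled control 2 and KO 2, held the higher values. Of the 12153 genes tested in LMPPs, 26.7% had both of these libraries above the other 2 and 29.9% had both below, so that such an order is common in this table. By label, both KO libraries were above both controls in 5.92% of genes and below them in 6.3%. None was called by limma in LMPPs (0% higher and 0% lower), where 2 genes had an unadjusted p under 0.05. The exactTest and the quasi-likelihood test of edgeR and DESeq2 also called 0 genes, with 4, 3 and 1 at an unadjusted p under 0.05. The pseudogene *Hmga2-ps1*, a near copy with which reads could be shared, held 1 to 5 reads in each IdHPC library and stood at 1.18, 1.55, 0.89 and 1.97 CPM in the LMPP libraries in the same order.

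*Lin28a* and *Lin28b*, which block let-7 maturation, were not detectable at this depth in KO IdHPCs. Among IdHPCs, *Lin28a* had 2 reads in control 1 and 0 in the other 3 libraries. *Lin28b* had 1 read in control 2 and 0 in the other 3. A count of 0 allows up to 3 reads, which is 0.105 CPM in KO 1 and 0.141 CPM in KO 2. At this limit *Lin28b* lay far below the 27.7 CPM of *Hmga2* in KO 2. In LMPPs *Lin28a* had 1 read in each library labelled KO and *Lin28b* 1 read in KO 1, with 0 in both libraries labelled control. Neither gene reached the filter of 1 CPM in any library, and neither was tested in either cell type.

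*Igf2bp1* was low in IdHPCs and stood higher in both KO libraries. It had 1.59 and 1.78 CPM (52 and 62 reads) in control libraries against 4.74 and 3.15 CPM (135 and 67 reads) in KO. The difference of 0.86 ± 0.30 on the log2(CPM + 1) scale did not pass the test across all genes (limma adjusted p = 0.226). *Igf2bp2* had 1.07 and 0.86 CPM in control libraries against 3.05 and 1.65 CPM in KO, that is 35 and 30 reads against 87 and 35. Its difference of 0.74 ± 0.32 did not pass either (limma adjusted p = 0.330). Both KO libraries stood above both controls for *Igf2bp1* and *Igf2bp2*, as they did for 25.6% of all genes tested. Within the genes, both KO libraries were higher in 8 of the 13 exons of *Igf2bp1* with reads and in 6 of the 15 of *Igf2bp2*. Some of these exons held very few reads, such as exon 5 of *Igf2bp1* with 1 read in each IdHPC library. There the order follows only from the CPM that 1 read was worth. Exons of a gene come from the same libraries, so that these counts are no separate evidence of a rise.

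*Igf2bp3*, the main member of its family in IdHPCs, overlapped between control and KO. It stood at 94.3 and 89.1 CPM in control libraries against 101 and 76.4 CPM in KO. The difference was -0.06 ± 0.23 (limma adjusted p = 0.926). *Igf2bp3* took 97.3% and 97.1% of the reads of the 3 *Igf2bp* genes in the control IdHPCs and 92.9% and 94.1% in KO. In LMPPs the family was barely read, with 10 to 24 reads for the 3 genes together in each library. *Igf2bp3* was at 0.664, 0.748, 0.686 and 0.606 CPM under the labels control 1, control 2, KO 1 and KO 2. *Igf2bp1* had 0 to 2 reads in each LMPP library and *Igf2bp2* 2 to 10, and none of the 3 reached the filter of 1 CPM in LMPPs.

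*Arid3a*, which is needed for B cell development, was lower in both KO IdHPC libraries without passing the test. It stood at 113 and 88.5 CPM in control libraries against 83.0 and 48.0 CPM in KO. Both KO libraries were below both controls, which held for 21.3% of all genes tested, and the difference of -0.66 ± 0.28 had an adjusted p of 0.321 (limma). Within the gene, both KO libraries were lower in 3 of the 9 exons. KO 2 was the lowest library in every exon. In exon 2 it stood at 4.56 CPM, against 18.2, 12.3 and 14.3 CPM in control 1, control 2 and KO 1. KO 2 also had more of its reads on 3′ exons, and the part of that in the values of *Arid3a* was not tested. The size of the difference changed with the KO library left out. Without KO 1 the difference was -1.05 (adjusted p = 0.036), and without KO 2 it was -0.27 (adjusted p = 0.744). Each of these fits has 1 KO library, which is assumed to vary like the controls. In LMPPs *Arid3a* had 37.1 and 33.3 CPM by label in control against 38.9 and 29.0 CPM in KO, a difference of -0.06 ± 0.18 (adjusted p = 1.0). The LMPP libraries without reads on exons 2 to 7 of *Pcgf1*, labelled control 2 and KO 2, held the lower values, as for 29.9% of all genes tested there.

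*Hmga1*, the close relative of *Hmga2*, was the most abundant member in all 8 libraries per length of exon. Its exons stood at 2112 and 1545 CPM in sum in the control IdHPCs and at 2166 and 1910 CPM in KO. The groups overlapped, and the difference was 0.17 ± 0.24 (limma adjusted p = 0.774). In LMPPs it stood at 391 and 290 CPM by label in control against 413 and 281 CPM in KO, with a difference of 0.02 ± 0.23 (adjusted p = 1.0). The table lists overlapping forms of the same *Hmga1* exons, 16 in all, so that these sums overstate it. The *Hmga1* exon with most reads alone stood at 459, 355, 476 and 449 CPM in IdHPC control 1, control 2, KO 1 and KO 2. It stood at 51.2, 26.7, 51.3 and 27.9 CPM in the LMPP libraries in the same order, lower in those without reads on exons 2 to 7 of *Pcgf1*. Of all genes tested in LMPPs, 29.9% were lower in these libraries.

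**Figure D3:**
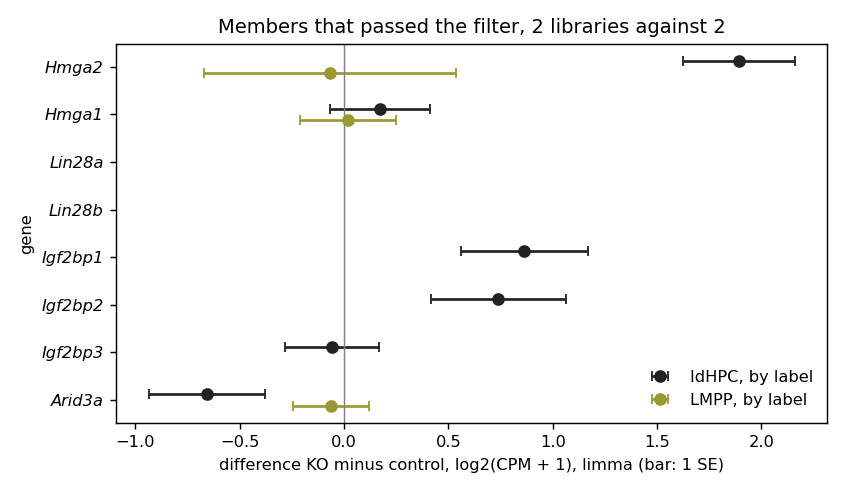
Difference KO minus control on the log2(CPM + 1) scale from limma for the members that passed the filter, by label, 2 libraries against 2, with bars of 1 SE (black for IdHPC, olive for LMPP). *Hmga2* stands at 1.89 in IdHPCs, *Igf2bp1* and *Igf2bp2* at 0.86 and 0.74 with adjusted p-values above 0.05, and the 3 members tested in LMPPs lie between -0.07 and 0.02.

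Per kb of exon, the order of the members in the controls differed between the cell types. In control IdHPCs *Hmga1* came first (1061 and 776 CPM per kb, values that the repeated listing of overlapping exon forms overstates), followed by *Igf2bp3* (21.7 and 20.5) and *Arid3a* (20.4 and 15.9), which were close to each other. *Hmga2* followed at 1.31 and 0.982 CPM per kb, above *Igf2bp1* (0.164 and 0.183) and *Igf2bp2* (0.150 and 0.121). In the libraries labelled LMPP control the order was *Hmga1*, *Arid3a*, *Hmga2* and *Igf2bp3*, with *Igf2bp3* at 0.153 and 0.172 CPM per kb. The tables of the 2 cell types were normalized separately, and no test was made across them.

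Markers of stromal cells were higher in the same IdHPC libraries as *Hmga2*. The 20 stromal markers, collagens and other matrix genes with *Cxcl12* and the receptor genes *Pdgfra* and *Pdgfrb*, summed to 4221 and 3730 CPM in the controls and to 8847 and 6742 CPM in KO, a ratio of means of 1.96. Both KO libraries were above both controls for 16 of the 17 markers tested, beside 25.6% of all genes. Of the 17, 2 were called higher, beside 0.269% of all genes, and 0 lower, *Sparc* (1.36 ± 0.21, limma adjusted p = 0.027) and *Col1a2* (1.27 ± 0.23, adjusted p = 0.044), neither of which was called without control 2. *Cxcl12*, which encodes a chemokine of marrow stroma, had 1.90 ± 0.41 (adjusted p = 0.071) and *Col6a2* 1.37 ± 0.33 (adjusted p = 0.090). The median difference of the 17 was 1.004, beside 0.01 over all genes tested. *Dcn* and *Lum* had no read. Fewer cells of a type and less RNA for each cell cannot be told apart in such libraries.

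The members were also set against the summed stromal markers. *Hmga2* had 2.10 and 1.78 CPM for each 1000 CPM of stromal markers in the control IdHPCs and 3.98 and 4.10 in KO. The ratio of the group means was 2.08 on this scale and 4.06 in CPM, a description of the contrast that chose the gene. *Igf2bp1* had 0.377 and 0.476 in the controls and 0.536 and 0.468 in KO, and *Igf2bp2* had 0.254 and 0.230 in the controls and 0.345 and 0.244 in KO. On this scale the control and KO libraries of *Igf2bp1* and of *Igf2bp2* overlapped, with ratios of 1.18 and 1.22 where CPM gave 2.34 and 2.43. The summed markers were themselves 1.96 times higher in KO, so that dividing by them lowers the ratio of any gene. The lower ratios therefore cannot show which cells the RNA came from. This division was chosen after the values were seen, and the part of stromal RNA in the values of the members was not tested. In LMPPs, which were also cultured on stroma, the same 20 markers summed to 51.7 to 65.0 CPM, most of it *Pdgfrb* and *Mmp2*, while *Hmga2* was at 2.73 to 10.4 CPM.

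**Figure D4:**
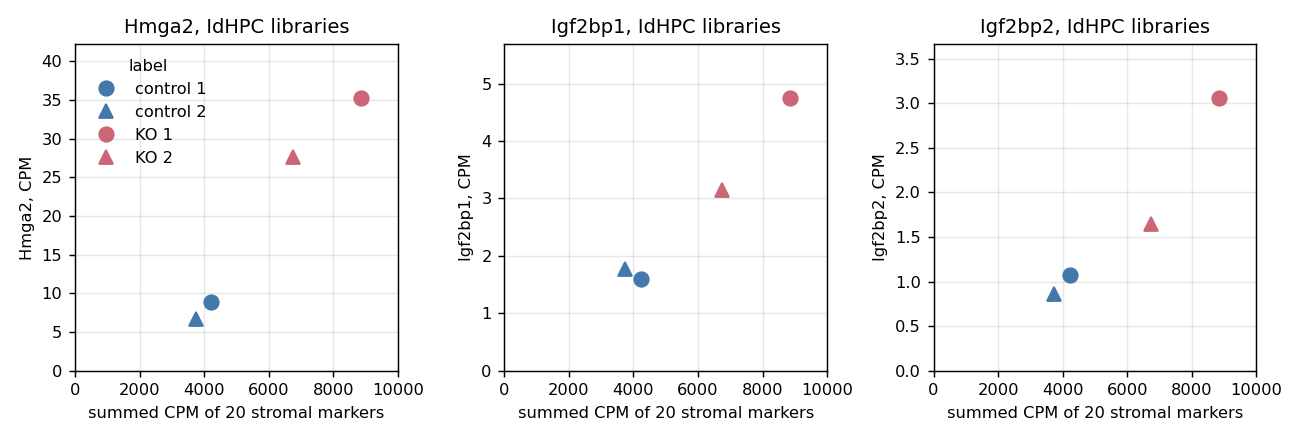
CPM of *Hmga2*, *Igf2bp1* and *Igf2bp2* (vertical axes) against the summed CPM of 20 stromal markers (horizontal axis), 1 point for each of the 4 IdHPC libraries, blue for control and red for KO, circles for replicate 1 and triangles for replicate 2. In all 3 panels both KO points lie to the right of and above both control points.

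The pattern of *Hmga2* across libraries was compared with that of the 11247 other genes tested in both cell types, by Pearson's r of log2(CPM + 1), centred within each table, over the 8 libraries. The 4 libraries of a cell type share their table and culture, and depth differed between libraries. The closest genes were *Tnks1bp1* (r = 0.99), *Vat1* (0.99), *Rhbdl3* (0.99), *Ltbp3* (0.99), which encodes a matrix protein that binds latent TGF-beta, and *Itgb5* (0.99), an integrin subunit. They were picked for the highest r among many genes over few libraries, so that these values are a description. In LMPPs the order of *Hmga2*, higher in the libraries without reads on exons 2 to 7 of *Pcgf1*, held for 26.7% of genes tested. *Ltbp3* stood at 14.8 and 15.4 CPM in the control IdHPCs and at 33.8 and 31.0 CPM in KO. In LMPPs it stood at 70.9, 135, 75.1 and 125 CPM under the labels control 1, control 2, KO 1 and KO 2. Among the members tested in both cell types, *Hmga1* had r = -0.14 and rank 6105, and *Arid3a* r = -0.62 and rank 9932.

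The list of 15 genes that act on let-7 holds the processing enzymes DROSHA and DICER1, the Argonautes and the uridylyl transferases that work with LIN28 proteins. All 15 were tested in IdHPCs and 0 were called, near the share of all genes (0.269% and 0.261%), and 3 had an unadjusted p under 0.05, all 3 lower in KO, as had 5.33% of all genes tested, with a median difference of -0.30 beside 0.01 over all genes. The list summed to 1243 and 1208 CPM in control 1 and control 2, 1155 CPM in KO 1 and 801 CPM in KO 2, the library with more reads on 3′ exons, and the part of that was not tested. *Zcchc11* (TUT4), which adds uridines to pre-let-7, stood at 116 and 144 CPM in control libraries against 73.2 and 51.1 CPM in KO (-1.07 ± 0.24, limma adjusted p = 0.082). *Eif2c2* (AGO2) stood at 63.8 and 71.9 CPM in control libraries against 60.7 and 12.7 CPM in KO (-1.24 ± 0.53, adjusted p = 0.318). The low value was in KO 2. *Dicer1* had -0.59 ± 0.26 (adjusted p = 0.329). The 12 let-7 hairpin genes summed to 0.143 to 0.471 CPM in the IdHPC libraries, and poly(A) RNA does not measure mature let-7.

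Other messages known as let-7 targets gave a single call. Of 19 listed, 18 were tested in IdHPCs, 1 was called higher and 0 lower, beside 0.269% and 0.261% of all genes, and the median difference was -0.13. The called gene was *Ccnd1*, which encodes cyclin D1 and stands in C1. It rose from 14.2 and 10.5 CPM to 46.9 and 36.3 CPM (1.67 ± 0.26, limma adjusted p = 0.029) and was not called without control 2. The stromal markers were higher in the same libraries, and their part in the value of *Ccnd1* was not tested. The insulin receptor gene *Insr* had -0.74 ± 0.26 (adjusted p = 0.227). *Trim71*, a let-7 target of early embryos, had no read in any of the 8 libraries.

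Of 16 fetal growth and imprinted genes, 5 were tested in IdHPCs and 0 were called, near the share of all genes (0.269% higher and 0.261% lower). *Igf1*, which encodes a growth factor, had 1.99 and 0.458 CPM in control libraries against 8.32 and 2.21 CPM in KO (1.39 ± 0.50, limma adjusted p = 0.235). *Igf2r*, which encodes the receptor that clears IGF2, had 122 and 169 CPM in control libraries against 82.7 and 68.6 CPM in KO (-0.92 ± 0.24, adjusted p = 0.104), and *Mest* had -0.43 ± 0.34 (adjusted p = 0.585). The embryonic globin genes *Hbb-bh1*, *Hbb-y* and *Hba-x* and the fetal stem cell factor *Sox17* had no read in any IdHPC library. *Bcl11a*, a repressor of fetal globin, was the 1 tested gene of that list (-0.39 ± 0.23, adjusted p = 0.476).

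Among 11 relatives of HMGA and ARID3A, 10 were tested in IdHPCs and 0 were called, near the 0.269% higher and 0.261% lower of all genes, with a median difference of 0.28 beside 0.01 over all genes. The nucleosome-binding gene *Hmgn3* had 1.07 and 1.40 CPM in control libraries against 4.56 and 5.18 CPM in KO (1.39 ± 0.29, limma adjusted p = 0.067). *Arid3b*, the paralog of *Arid3a*, had 19.4 and 20.7 CPM in control libraries against 7.94 and 10.6 CPM in KO (-1.05 ± 0.26, adjusted p = 0.104), and *Hmg20b* had 0.66 ± 0.24 (adjusted p = 0.246).

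**Figure D5:**
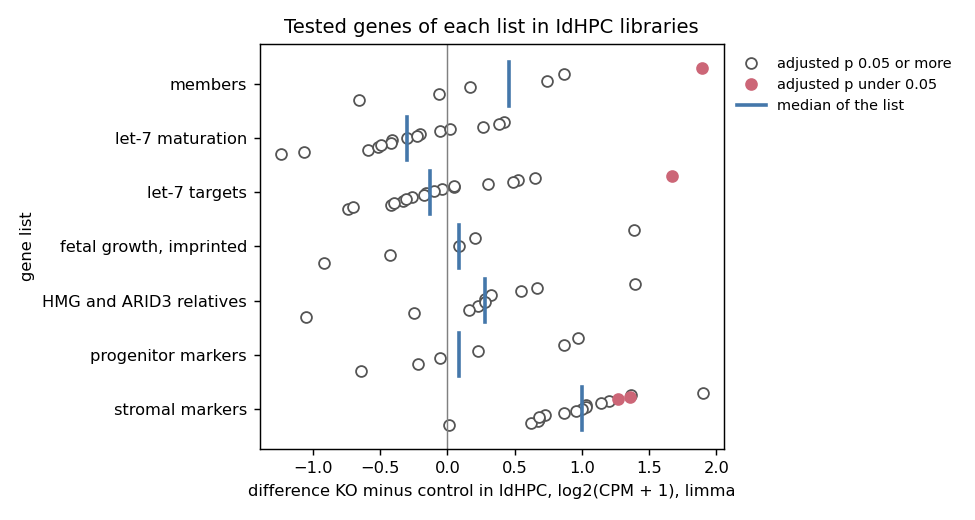
Difference KO minus control in IdHPCs on the log2(CPM + 1) scale for every tested gene of 7 lists, 1 point for each gene, red where the limma adjusted p was under 0.05, with a blue bar at the median of the list. The 17 stromal markers all lie above 0, while the points of the let-7 maturation and let-7 target lists lie on both sides of 0 with medians of -0.30 and -0.13.

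Markers of blood lineages bear on the label of the cells. In IdHPCs the progenitor markers *Flt3*, *Kit*, *Cd34*, *Ptprc*, *Spn* and *Ly6a* were all read, and 0 of 6 were called, near the share of all genes (0.269% and 0.261%). *Cd34* had 0.97 ± 0.23 (limma adjusted p = 0.086), *Ly6a* 0.87 ± 0.23 (adjusted p = 0.114) and *Ptprc*, which encodes CD45, -0.64 ± 0.24 (adjusted p = 0.248). Mature myeloid markers summed to 2.75 to 8.78 CPM, with *Lyz2* at 1.07 ± 0.32 (adjusted p = 0.152), *Mpo* at 0.95 ± 0.36 (adjusted p = 0.262) and *Itgam* at -0.82 ± 0.37 (adjusted p = 0.340), and *Elane*, *S100a8* and *S100a9* had no read. Erythroid markers summed to 2.08 to 3.27 CPM, with *Epor* at 0.25 ± 0.30 (adjusted p = 0.738). B lineage markers summed to 61.6 and 159 CPM in the controls and to 72.3 and 238 CPM in KO, higher in both libraries of number 2. *Pax5* had -1.41 ± 0.42 (adjusted p = 0.153), *Igll1* 1.36 ± 0.94 (adjusted p = 0.529) and *Vpreb1* 1.20 ± 0.75 (adjusted p = 0.492). In the LMPP libraries, progenitor markers summed to 2020 to 2118 CPM, mature myeloid markers to 2531 to 2930 CPM, most of it *Mpo*, erythroid markers to 3.69 to 8.71 CPM and B lineage markers to 13.04 to 17.7 CPM. The study lists *Mpo* as a marker of myeloid progenitors, so that the sums named mature myeloid do not measure mature cells alone. In LMPPs, 0 genes of any of these lists were called by label.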

How the data were processed

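Values were deposited by the authors as CPM, per exon and not per gene, from poly(A) RNA aligned to mm9, counted with Rsubread and scaled with edgeR. The methods name HISAT2 and the submitters' processing notes TopHat2 (version 2.0.13). Exons identical to the one before under the same symbol in all 8 libraries (26.6% of those with reads) were counted once and summed by symbol. Every value came out as whole reads (100% within 0.001 read). CPM keeps the authors' denominator. Limits from counts of 0 are 3 reads, for counting error only.

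The 2 tables were fitted separately with limma (version 3.58.1, R 4.3.3) with a mean-variance trend on log2(CPM + 1), genotype as the only term, over genes with at least 1 CPM in at least 1 library, with Benjamini-Hochberg adjustment. edgeR (4.0.16) and DESeq2 (1.42.0) were run on the recovered reads. On simulated counts with a dispersion of 0.02 and log2 fold changes of 2 over 12198 IdHPC genes, limma recovered 197 of 200 changed genes, and 192 of 200 on 12119 LMPP genes. Real replicates can spread more.

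The members and lists were chosen with earlier results of these data known. Named were all members, the 3 tested genes of each list with the largest IdHPC difference and any called, the 5 genes most like *Hmga2*, and *Pcgf1*. A gene that this rule names is not reported here. *Trim71*, *Hbb-bh1*, *Hbb-y*, *Hba-x*, *Sox17*, *Elane*, *S100a8*, *S100a9*, *Dcn*, *Lum*, *Pdgfra*, *Pdgfrb*, *Mmp2* and *Mpo* in LMPPs were picked with their values known.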

Additional observations from a re-analysis of the deposited data

Results flagged for a closer look

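*Igf2bp2* stood in opposite order in the labelled groups of the 2 cell types. The mean CPM of KO over control was 2.43 in IdHPCs, where both KO libraries lay above both controls, and 0.429 in LMPPs, where both libraries labelled KO lay below both labelled control. The LMPP values rest on 10, 10, 6 and 2 reads in the libraries labelled control 1, control 2, KO 1 and KO 2, under the filter of 1 CPM, and on labels that the reads on *Pcgf1* exons 2 to 7 go against. The libraries without such reads, labelled control 2 and KO 2, stood at 0.575 and 0.151 CPM and those with them at 0.737 and 0.412 CPM, which overlap, so that the opposite order holds by label and not by these reads. The difference between the cell types was not tested.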

How the results depend on the processing

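*Hmga2* was chosen on the IdHPC contrast, so that its values under the 16 alternatives, differences of 1.35 to 2.08, are a description and no sign of stability. It missed the threshold with no filter on low values, without control 2 and without the 3′ exon (adjusted p = 0.178, 0.148 and 0.533). *Igf2bp1* and *Igf2bp2* passed under none of 16 (differences of 0.63 to 1.23 and 0.43 to 1.29), and *Arid3a* under 1, without KO 1, a fit whose lone KO library is assumed to vary like the controls. The members called in IdHPCs, 1 by limma, numbered 0 with no filter and 0 without the 3′ exon, and 0 to 2 with a library left out.

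Genes called higher and lower in IdHPCs, 33 and 32, were 0 and 0 with no filter, 59 and 45 after median-ratio rescaling, 466 and 163 by exactTest, 77 and 47 by the quasi-likelihood test, 341 and 153 by DESeq2, 19 and 25 over all listed exons, and 0 and 3 without the 3′ exon. Dropping repeats across symbols, chosen after seeing the data, gave 79 and 47. With a library left out they were 0 to 237 and 14 to 581: 0 and 14 without control 2, 237 and 581 without KO 1, 120 and 46 without KO 2. The cause was not tested.

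The replicate block gave 484 and 185 in IdHPCs and 3 higher in LMPPs, where it was 0 without the block. The labels do not say what a replicate number marks. The deviations of same-numbered samples (2 pairs) correlated at 0.15 in IdHPCs and at 0.71 in LMPPs, where same-numbered libraries also shared the presence or absence of reads on *Pcgf1* exons 2 to 7.

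Signs turned, with no call, where a library was left out. Over such fits the IdHPC difference ran from -0.054 to 0.40 for *Hmga1* (below 0 without control 2) and from -0.26 to 0.14 for *Igf2bp3* (above 0 without KO 2). By label in LMPPs it ran from -0.87 to 0.74 for *Hmga2*, from -0.26 to 0.29 for *Hmga1* and from -0.27 to 0.14 for *Arid3a*, which was at 0.019 without the 3′ exon. Per kb, *Igf2bp3* moved from place 3 to 2 in control IdHPCs.

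The *Igf2bp* genes had 10 to 24 reads together in each LMPP library and were not tested there.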
